A study of Homo sapiens with 13 samples.

Results

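The genes described here make cholesterol from acetyl-CoA, sense it, move it inside the cell and export it. They were 30 named genes, chosen by symbol and matched to the table by Ensembl identifier, of 43836 genes in the table. All 30 were found once each, and all 30 passed the filter on low counts that left 17092 genes for testing. By role, 8 genes belonged to the mevalonate arm, 3 made squalene and lanosterol, 9 turned lanosterol into cholesterol, 4 sensed sterols, 3 carried cholesterol inside the cell, and 3 were efflux genes and other targets of the liver X receptors (LXR).

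Cells regulate these genes by feedback. When the endoplasmic reticulum runs low in sterol, the escort protein SCAP carries the membrane-bound transcription factor SREBP2, the product of SREBF2, to the Golgi, where it is cut free and activates the synthesis genes. When sterol is plentiful, INSIG1 and INSIG2 hold SCAP back, and oxysterols activate LXR, which raises the export pumps ABCA1 and ABCG1 and the ubiquitin ligase MYLIP, which marks lipoprotein receptors for degradation. Serum brings lipoproteins that supply cells with cholesterol. In bone the mevalonate arm is known as the target of the nitrogen-containing bisphosphonates, which inhibit FDPS.

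Messenger RNA was measured in hFOB 1.19, a human fetal osteoblast line immortalized with a temperature-sensitive viral antigen, so every library came from 1 line. Positive controls were given 10% fetal bovine serum, and negative controls were serum starved. The treated groups were also serum starved and received 1 µg/mL of RES (resveratrol, a stilbene), DEG (not spelled out in the labels) or POG (the anthocyanin peonidin-3-O-glucoside). Per the study's methods, both controls carried the DMSO vehicle. There were 2 positive control, 2 negative control, 3 RES, 3 POG and 2 DEG libraries.

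The libraries held 38464619 to 51416358 counted reads, and the 30 genes took 0.222% of them in the positive controls, 0.487% to 0.494% in the negative controls, 0.507% to 0.51% with RES, 0.559% to 0.561% with POG and 0.548% with DEG. Levels are given in CPM, a gene's reads brought to 1 common library total after TMM scaling. The marker genes below are the exception: their CPM came from plain library totals, without TMM scaling. Fold changes are log2 ratios between groups, and a gene was called at an edgeR exact test FDR under 0.05. The 10 osteoblast markers differed widely in level. COL1A1 stood at 2480 to 2830 CPM, COL1A2 at 1120 to 1370, SPARC at 1030 to 1130 and RUNX2 at 44.4 to 51.8. ALPL had 3.25 to 6.45 CPM, PTH1R 0.858 to 2.02, BGLAP 0.43 to 2.02 and DLX5 0.66 to 1.86. SP7 and IBSP had at most 0.183 and 0.0227 CPM and did not pass the filter on low counts. The 10 osteoblast markers summed to 5290 to 5310 CPM in the positive controls, 5230 to 5280 in the negative controls, 4980 to 5090 with RES, 4800 to 4840 with POG and 4800 with DEG. COL1A1, COL1A2 and SPARC made up most of each sum. Of the 2 endothelial markers, CDH5 stayed at or below 0.113 CPM, and their sum was 1.52 to 1.54 CPM in the positive controls, 2.23 to 2.32 in the negative controls, 1.84 to 2.59 with RES, 1.09 to 1.39 with POG and 1.28 to 1.53 with DEG. The 3 macrophage and blood markers summed to 2.16 to 4.32 CPM over all libraries, with PTPRC at most 0.158, and the 2 liver markers to at most 0.333. The TMM factors left out for the markers multiply a library's total. They were 0.9614 and 0.9681 in the positive controls, 0.9942 and 0.9936 in the negative controls and 1.007 to 1.014 with the compounds. Scaled by these factors, marker values would be higher in both controls and lower with the compounds. The part of the marker shifts in the results below was not tested. In bulk RNA a change in level cannot be told apart from a change in the share of cells that express a gene.

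Within a group most of the 30 genes varied little. Between a pair of libraries of 1 group, the median absolute log2 difference of the 30 genes was 0.0205 to 0.0469 outside the positive controls and 0.0815 between the positive controls. The widest gap between the positive controls was that of ABCA1, at 0.352. ABCG1 had the widest gap between RES libraries (0.495) and between POG libraries (0.28). Between the negative controls it was INSIG2 (0.233), and between the DEG libraries CYP51A1 (0.228). The median log2 deviation of the 30 genes from their mean over all libraries was −0.92 and −0.99 in the positive controls, 0.082 and 0.11 in the negative controls, 0.17 in each RES library, 0.24 to 0.25 with POG, and 0.22 and 0.25 with DEG.

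**Figure D1:**
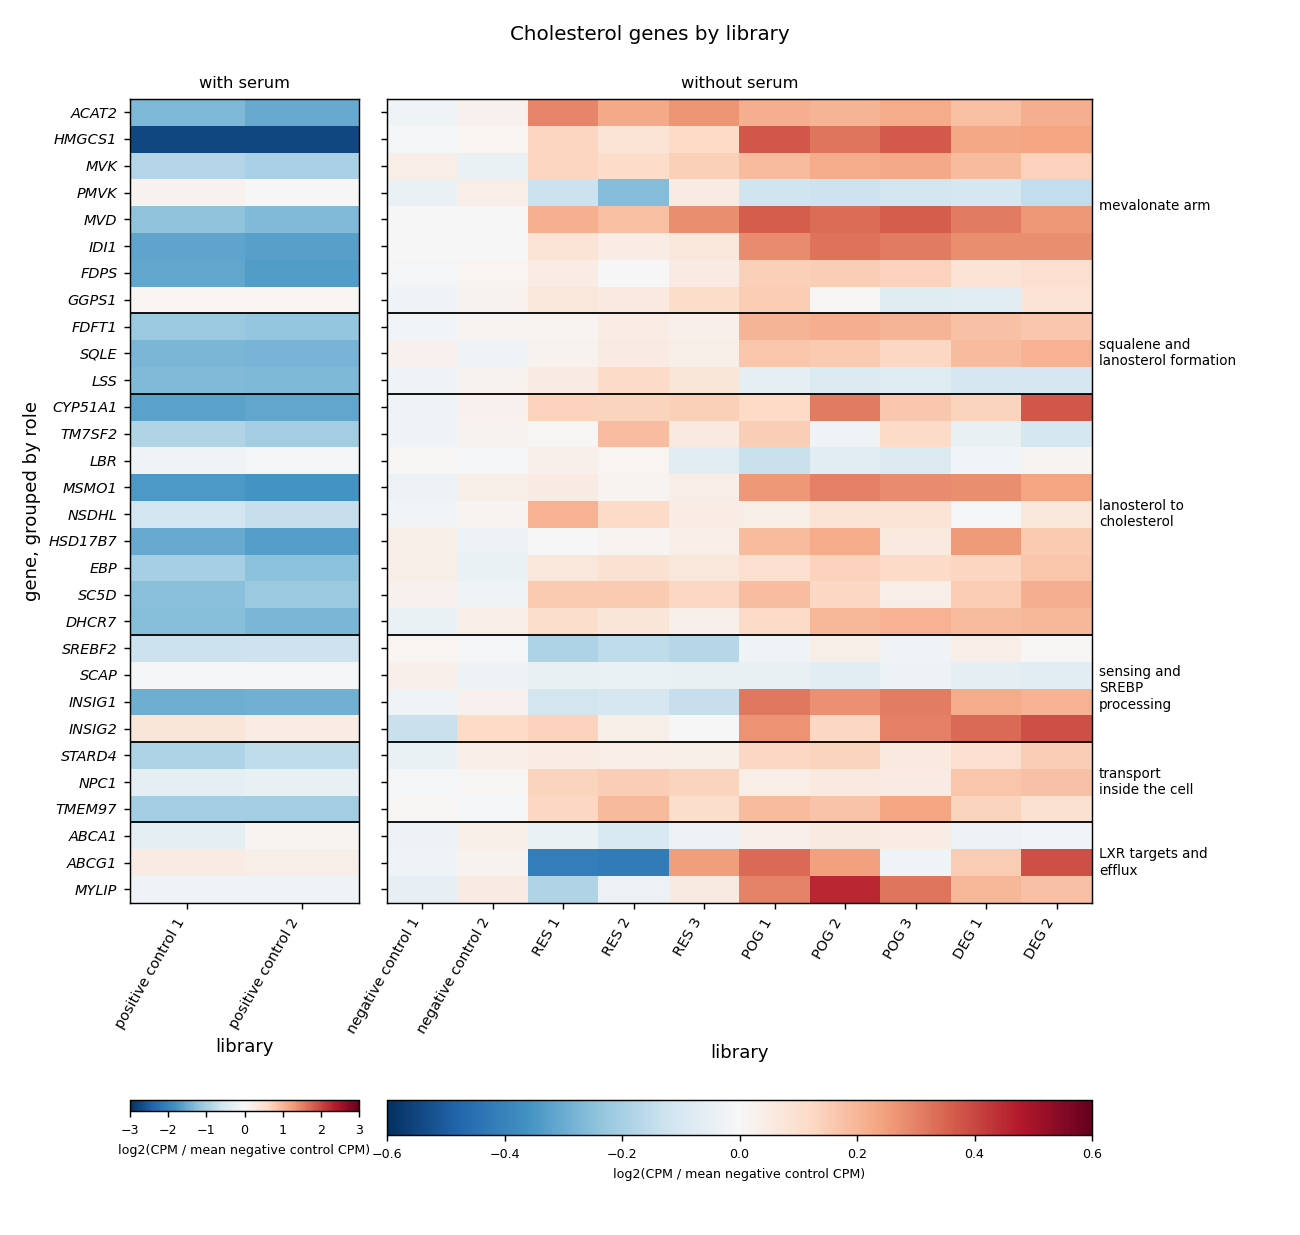
Log2 ratio of each library's CPM to the mean of the negative controls, for the 30 genes (rows, grouped by role) in the 2 libraries with serum (left, scale −3 to 3) and the 10 without (right, scale −0.6 to 0.6). With serum most rows are blue, and POG and DEG columns are red over most synthesis genes; ABCG1, at about 3 CPM, varies most between RES libraries.

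Without serum, the levels differed widely between the genes. Divided by exon length, INSIG1 stood at 202 CPM per kb in the negative controls, FDPS at 145 and the sterol oxidase MSMO1 at 76.7. FDFT1 (squalene synthase, 71.6), the sterol isomerase EBP (65.01) and SREBF2 (61.8) followed. The lowest were MYLIP at 3.53, INSIG2 at 2.73 and ABCG1 at 0.493 CPM per kb. INSIG1 was thus the higher of the 2 INSIG genes and ABCA1, at 8.06 CPM per kb, the higher of the 2 efflux pumps in every group.

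The first comparison asked what serum did to these genes. With serum, 22 of the 30 genes were lower and 1 was higher, while 20.9% of all tested genes were called lower and 21.4% higher. The median log2 fold change of the 30 genes was −1.07, beside −0.00586 over all 17092 genes. Called changes of more than 1 on the log2 scale were seen in 16 of the 30 genes and in 686 of all tested genes.

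In the mevalonate arm, 6 of 8 genes fell with serum. HMGCS1 (ENSG00000112972.14; hg38 chromosome 5, 43287470 to 43313512), the synthase that joins acetyl units into HMG-CoA, stood at 47.6 and 48.2 CPM in the positive controls and 315 and 320.1 CPM in the negative controls. It was 6.63-fold lower with serum (log2 fold change −2.73, SE 0.035, edgeR quasi-likelihood FDR 1.93e-31), the largest fall among the 30 genes. FDPS (ENSG00000160752.14; hg38 chromosome 1, 155308748 to 155320666), which makes farnesyl diphosphate, had 182 and 168 CPM with serum and 532 and 542 CPM without, a log2 fold change of −1.62 (SE 0.033, edgeR quasi-likelihood FDR 4.29e-26). The isomerase IDI1 changed by −1.61, the thiolase ACAT2 by −1.43, the decarboxylase MVD by −1.27 and the mevalonate kinase MVK by −0.92 on the log2 scale. The remaining genes of the arm did not pass the test: the phosphomevalonate kinase PMVK had 0.065 (95% interval −0.11 to 0.24) and GGPS1, which leads to geranylgeranyl groups for proteins and away from sterols, had 0.062 (95% interval −0.064 to 0.19).

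All 3 genes of squalene and lanosterol formation fell. The epoxidase SQLE changed by −1.38, the lanosterol synthase LSS by −1.34 and FDFT1 by −1.14 on the log2 scale. From lanosterol to cholesterol, 8 of 9 genes fell. MSMO1 (ENSG00000052802.12; hg38 chromosome 4, 165327667 to 165343164), which oxidizes the sterol's methyl groups, had 66.5 and 62.7 CPM with serum and 213 and 224 CPM without (3.38-fold lower; log2 fold change −1.76, SE 0.038, edgeR quasi-likelihood FDR 1.76e-25). The demethylase CYP51A1 changed by −1.58, HSD17B7 by −1.58, the reductase DHCR7 of the last step by −1.33, the desaturase SC5D by −1.19, EBP by −1.11, TM7SF2 by −0.97 and NSDHL by −0.63. TM7SF2 and LBR encode reductases for the same sterol step. LBR, which is also a lamin receptor of the nuclear envelope, had a log2 fold change of −0.078 (95% interval −0.17 to 0.015) and did not pass the test.

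The 4 sensing genes moved in different directions. INSIG1 (ENSG00000186480.12; hg38 chromosome 7, 155297776 to 155310235) stood at 269 and 272 CPM with serum and 727 and 752 CPM without, so that it was 2.73-fold lower with serum (log2 fold change −1.45, SE 0.029, edgeR quasi-likelihood FDR 2.52e-26). SREBF2 (ENSG00000198911.11; hg38 chromosome 22, 41833105 to 41907306) had 321 and 324 CPM with serum and 502 and 493 CPM without (log2 fold change −0.63, SE 0.030, edgeR FDR 4.35e-66). INSIG2 (ENSG00000125629.14; hg38 chromosome 2, 118088452 to 118110997) went the other way, with 13.8 and 12.7 CPM with serum against 9.84 and 11.7 CPM (log2 fold change 0.30, SE 0.094, edgeR FDR 0.00575), and the libraries did not overlap. This call was lost without positive control replicate 1 (FDR 0.0877) and without negative control replicate 1, where the log2 fold change was 0.17 (edgeR FDR 0.256). SCAP did not pass the test (−0.049, 95% interval −0.12 to 0.025).

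The 3 transport genes fell as well. TMEM97, which binds the lysosomal cholesterol exporter NPC1, changed by −1.03, the sterol carrier STARD4 by −0.84 and NPC1 by −0.26 on the log2 scale. None of the 3 LXR targets passed the edgeR exact test, the quasi-likelihood test or DESeq2, and 0 of 3 had an unadjusted p under 0.05. ABCA1 (ENSG00000165029.15; hg38 chromosome 9, 104781006 to 104928155) had 75.3 and 96.4 CPM with serum and 89.2 and 93.5 CPM without (log2 fold change −0.092, SE 0.062, edgeR FDR 0.261), and the positive controls lay on both sides of the negative controls. Without positive control replicate 2, ABCA1 was called lower (log2 fold change −0.27, edgeR FDR 4.46e-09). ABCG1 (ENSG00000160179.18; hg38 chromosome 21, 42199689 to 42297244) had 3.60 and 3.39 CPM against 2.97 and 3.07 CPM (log2 fold change 0.21, SE 0.19, edgeR FDR 0.414). MYLIP (ENSG00000007944.14; hg38 chromosome 6, 16129086 to 16148248) had 9.86 and 9.98 CPM against 10.5 and 11.2 CPM (log2 fold change −0.13, SE 0.093, edgeR FDR 0.295).

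**Figure D2:**
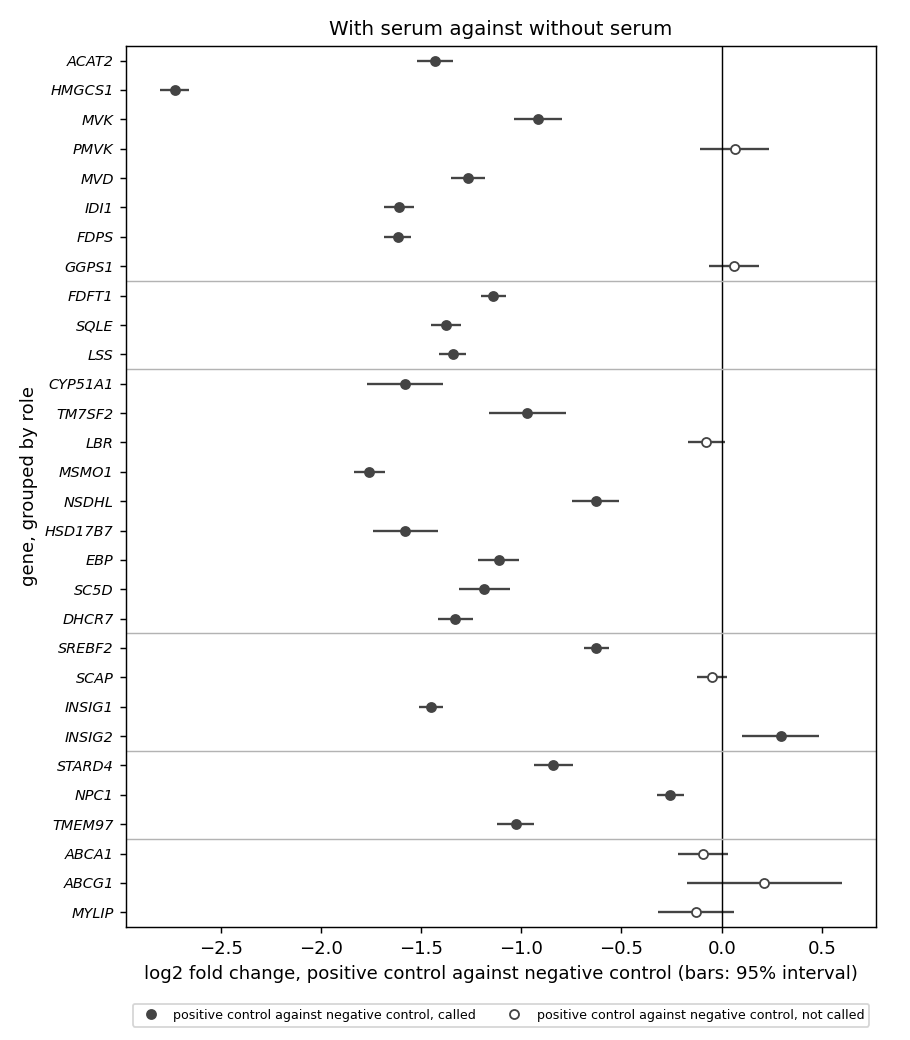
Log2 fold change of the 30 genes between 2 positive and 2 negative control libraries, by role. Points are estimates, bars are 95% intervals, and filled points passed an FDR of 0.05: 22 lie below 0, INSIG2 lies above, and the 3 LXR targets at the bottom are open.

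Since most synthesis genes moved together with serum, their promoters were read for the DNA motifs known for this system. RefSeq promoters on GRCh38.p14, from 250 bases before to 50 bases after a transcript start, were given for 26 of the 30 genes (34 starts). SREBP binds sterol regulatory elements (SRE) and works with NF-Y, which binds the box CCAAT, and with Sp1, which binds GGGCGG. Both strands were searched, so CCAAT also appears as ATTGG, and no copies of different motifs overlapped in the 26 genes. CCAAT was found in 19 of the 26 genes (73.1%) and in 39.7% of 27305 genes with a promoter. It was found in 17 of the 19 genes that fell with serum (89.5%) and in 2 of the 6 that were not called (33.3%), the latter being GGPS1 and MYLIP. GGGCGG was found in 24 of the 26 genes (92.3%) against 48.3% of all genes. Of the genes that fell with serum, 18 of 19 held it (94.7%), as did 5 of the 6 not called (83.3%). The SRE core TCACNCCAC was found in SREBF2 and in no other member, and in 1.39% of all genes. Only this string was searched, so any other form of the element would be missed. A repeat of the LXR type, GGTNA with a second GGTNA after 5 bases, was found in ABCA1 and at a secondary start of HMGCS1, and in 0.78% of all genes. A match describes letters in this window and is not a measured binding site. The 27305 genes were taken whether or not they were tested in these libraries, while all 26 members were tested.

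The 250 bases before the start are shown for the genes with the largest falls, for INSIG1 and SREBF2 as sensors, and for ABCA1 as an LXR target that was not called. Capitals mark CCAAT or ATTGG, the SRE core of SREBF2 and the LXR-type repeat of ABCA1. In HMGCS1 (chr5:43313413-43313662, minus strand) ATTGG lies 155 and 100 bases before the start. MSMO1 (chr4:165327419-165327668, plus strand) has 4 copies within 185 bases of its start, FDPS (chr1:155308616-155308865, plus strand) has 3 and INSIG1 (chr7:155297628-155297877, plus strand) has 1 at 170 bases. In SREBF2 (chr22:41832855-41833104, plus strand) the SRE core begins 133 bases and ATTGG 106 bases before the start. The repeat in ABCA1 (chr9:104928156-104928405, minus strand) begins 69 bases before the start, and ABCA1 has no CCAAT there.
HMGCS1: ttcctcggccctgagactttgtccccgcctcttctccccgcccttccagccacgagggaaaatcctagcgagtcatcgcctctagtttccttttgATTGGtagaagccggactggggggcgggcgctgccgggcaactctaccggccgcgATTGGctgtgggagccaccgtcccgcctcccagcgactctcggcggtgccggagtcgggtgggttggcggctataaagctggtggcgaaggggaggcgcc
MSMO1: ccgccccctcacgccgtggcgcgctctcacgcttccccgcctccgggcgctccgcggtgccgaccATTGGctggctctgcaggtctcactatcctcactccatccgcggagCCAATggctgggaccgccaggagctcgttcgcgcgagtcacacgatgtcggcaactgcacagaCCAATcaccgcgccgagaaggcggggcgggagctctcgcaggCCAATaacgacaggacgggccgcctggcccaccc
FDPS: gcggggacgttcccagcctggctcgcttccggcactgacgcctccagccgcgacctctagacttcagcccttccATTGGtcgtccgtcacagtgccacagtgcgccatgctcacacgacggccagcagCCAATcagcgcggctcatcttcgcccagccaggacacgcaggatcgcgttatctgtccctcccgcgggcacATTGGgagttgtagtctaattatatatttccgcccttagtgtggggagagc
INSIG1: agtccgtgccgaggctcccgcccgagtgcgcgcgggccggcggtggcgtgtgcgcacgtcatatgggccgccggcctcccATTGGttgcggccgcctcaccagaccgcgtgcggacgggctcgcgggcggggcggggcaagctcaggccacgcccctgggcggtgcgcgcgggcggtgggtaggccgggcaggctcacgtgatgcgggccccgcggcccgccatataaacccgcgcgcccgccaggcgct
SREBF2: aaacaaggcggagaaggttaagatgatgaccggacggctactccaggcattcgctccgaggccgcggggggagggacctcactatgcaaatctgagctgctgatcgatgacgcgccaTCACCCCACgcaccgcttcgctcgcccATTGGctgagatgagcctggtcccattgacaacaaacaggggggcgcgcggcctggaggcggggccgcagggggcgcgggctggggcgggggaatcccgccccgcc
ABCA1: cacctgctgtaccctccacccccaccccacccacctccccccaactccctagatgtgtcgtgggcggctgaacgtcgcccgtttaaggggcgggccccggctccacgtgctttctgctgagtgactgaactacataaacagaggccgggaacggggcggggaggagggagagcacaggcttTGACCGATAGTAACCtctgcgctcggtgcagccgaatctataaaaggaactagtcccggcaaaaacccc

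The next comparisons asked what each compound did without serum. The changes were small beside those with serum: no member moved by more than 1 on the log2 scale with any compound. The 3 comparisons share the negative control libraries, so their values stand side by side and not as separate evidence.

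With RES, 6 of the 30 genes rose and 2 fell, beside 4.94% of all tested genes called higher and 6.21% lower. The median log2 fold change of the 30 genes was 0.0608, beside 0.00112 over all genes. In the mevalonate arm, 3 of 8 rose. ACAT2 (ENSG00000120437.8; hg38 chromosome 6, 159762045 to 159779112), which joins acetyl-CoA units in the first step, stood at 177, 169 and 174 CPM with RES and 142 and 147 CPM in the negative controls (log2 fold change 0.26, SE 0.037, edgeR FDR 4.74e-09). MVD (ENSG00000167508.11; hg38 chromosome 16, 88651935 to 88663161), which removes the carboxyl group of the last mevalonate intermediate, had 162, 159 and 170.1 CPM against 140.3 and 139.6 CPM (log2 fold change 0.23, SE 0.036, edgeR FDR 6.08e-07). In both genes every RES library was above both controls. HMGCS1 rose by 0.11 (edgeR FDR 0.0123), and this call did not hold without any 1 of 4 libraries (both negative controls and RES replicates 1 and 3; FDR from 0.0597 to 0.209).

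None of the 3 squalene and lanosterol genes passed the edgeR exact test, the quasi-likelihood test or DESeq2 with RES. Of them 1, LSS, had an unadjusted p under 0.05. LSS was called higher with dispersions from the RES and negative control libraries alone (FDR 0.0162) and with plain library totals (0.0179). Of the 9 genes after lanosterol 1 rose, namely SC5D (ENSG00000109929.9; hg38 chromosome 11, 121292681 to 121313410), with 45.2, 45.2 and 44.2 CPM against 41.2 and 39.8 CPM (log2 fold change 0.15, SE 0.051, edgeR FDR 0.0464). The SC5D call was lost without any 1 library and with the quasi-likelihood test (FDR 0.0666), with DESeq2 and without the filter on low counts. Of the transport genes, NPC1 (0.14, edgeR FDR 0.00108) and TMEM97 (0.14, edgeR FDR 0.0111) rose. Both calls were lost without negative control replicate 1 (FDR 0.0689 and 0.0968), and that of TMEM97 also without negative control replicate 2 (0.15) or RES replicate 2 (0.103).

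RES was the one compound with which sensing genes fell. SREBF2 stood at 438, 448 and 442 CPM with RES and 502 and 493 CPM in the negative controls (log2 fold change −0.17, SE 0.027, edgeR FDR 1.06e-05). INSIG1 had 684, 689 and 672 CPM against 727 and 752 CPM (log2 fold change −0.12, SE 0.026, edgeR FDR 0.00427). For both genes, all RES libraries lay below both controls. The INSIG1 call was lost without negative control replicate 2 (log2 fold change −0.089, edgeR FDR 0.228). No LXR target passed the edgeR exact test, the quasi-likelihood test or DESeq2 with RES, and 0 of 3 had an unadjusted p under 0.05. The log2 fold change was −0.055 (95% interval −0.17 to 0.061) for ABCA1, −0.16 (95% interval −0.53 to 0.21) for ABCG1 and −0.052 (95% interval −0.23 to 0.12) for MYLIP. ABCG1 had 2.27, 2.26 and 3.59 CPM in the RES libraries and ABCA1 had 88.9, 85.8 and 89.2 CPM. MYLIP had 9.56, 10.6 and 11.2 CPM, and for these 3 genes the RES libraries overlapped the controls.

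With POG, 14 of the 30 genes rose and none fell by the edgeR exact test, beside 5.93% of all tested genes called higher and 8.57% lower. At an unadjusted p under 0.05, 2 genes (LSS and LBR) were lower, and the quasi-likelihood test and DESeq2 called 13 higher and 0 lower. The median of the 30 genes was 0.154, beside 0.00233 over all genes. In the mevalonate arm 6 of 8 genes rose. HMGCS1 stood at 411, 396 and 409.6 CPM with POG and 315 and 320.1 CPM without (log2 fold change 0.35, SE 0.029, edgeR FDR 8.82e-24). MVD had 180.2, 176 and 180.0 CPM against 140.3 and 139.6 CPM (log2 fold change 0.35, SE 0.036, edgeR FDR 3.34e-17). IDI1 (0.31), ACAT2 (0.22), MVK (0.21) and FDPS (0.14) also rose, and in each the 3 POG libraries were above both controls. PMVK and GGPS1 were not called with POG (−0.12 and 0.031).

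Further along the pathway POG raised FDFT1 (0.21, edgeR FDR 4.28e-09), SQLE (0.15), MSMO1 (0.28, edgeR FDR 4.18e-13), CYP51A1 (0.20, edgeR FDR 0.0427) and DHCR7 (0.18). HSD17B7 (0.16, edgeR FDR 0.0698), EBP (0.12, 0.0612), SC5D (0.12, 0.123) and INSIG2 (0.23, 0.0517) were not called with POG. In each, every POG library was above both controls. Each was called higher with dispersions from the POG and negative control libraries alone and with plain library totals. LSS, between SQLE and CYP51A1, was not called: its log2 fold change was −0.071 (edgeR FDR 0.147), and it was called lower with dispersions from the POG and negative control libraries alone (FDR 0.011). INSIG1 rose to 921, 894 and 913 CPM from 727 and 752 CPM (log2 fold change 0.30, SE 0.026, edgeR FDR 9.23e-19), with every POG library above both controls. SREBF2, at 489.8, 509 and 490.2 CPM with POG, had a log2 fold change of −0.0029 (95% interval −0.059 to 0.053). TMEM97 was the transport gene that rose (0.20, edgeR FDR 5.33e-05).

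Of the LXR targets, MYLIP rose with POG, to 13.3, 14.8 and 13.5 CPM from 10.5 and 11.2 CPM (log2 fold change 0.36, SE 0.083, edgeR FDR 0.000379), the largest log2 fold change among the 30 genes with this compound. The call was lost without negative control replicate 1 (0.31, edgeR FDR 0.0576). ABCA1 had 93.5, 94.98 and 94.2 CPM with POG (log2 fold change 0.044, SE 0.056, edgeR FDR 0.723; 95% interval −0.071 to 0.16), and ABCG1 3.82, 3.58 and 2.97 CPM (log2 fold change 0.19, SE 0.17, edgeR FDR 0.550; 95% interval −0.16 to 0.55). Neither passed the test. Without 1 negative control replicate, calls were lost for FDPS (FDR 0.0548) and DHCR7 (0.0791) without replicate 1, and for MVK (0.0694) and SQLE (0.0685) without replicate 2. CYP51A1 lost its call without either control, without POG replicate 2 or 3, and with DESeq2 or the quasi-likelihood test.

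With DEG, 16 of the 30 genes rose and none fell by the edgeR exact test, beside 3.52% of all tested genes called higher and 6.11% lower. At an unadjusted p under 0.05, 1 gene (LSS) was lower, and the quasi-likelihood test called 13 higher and 1 lower and DESeq2 14 higher and 1 lower. The median of the 30 genes was 0.17, beside 0.00083 over all genes. In the mevalonate arm 5 of 8 rose. MVD had 174 and 168 CPM with DEG and 140.3 and 139.6 CPM without (log2 fold change 0.29, SE 0.040, edgeR FDR 3.16e-09), and IDI1 (ENSG00000067064.10; hg38 chromosome 10, 1039152 to 1049119) had 231 and 231 CPM against 190.1 and 189.9 CPM (log2 fold change 0.28, SE 0.033, edgeR FDR 1.11e-11). HMGCS1 (0.23), ACAT2 (0.20) and MVK (0.17) were the others. FDFT1 (0.17) and SQLE (0.20) rose, while LSS had −0.10 (edgeR FDR 0.0627), and was called lower with the quasi-likelihood test (FDR 0.0479) and with DESeq2 (0.0332).

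From lanosterol to cholesterol, 6 of 9 genes rose with DEG: CYP51A1 (0.26), MSMO1 (0.26), HSD17B7 (0.21), DHCR7 (0.20), SC5D (0.19) and EBP (0.15). INSIG2 had the largest log2 fold change, with 13.6 and 14.1 CPM against 9.84 and 11.7 CPM (log2 fold change 0.36, SE 0.10, edgeR FDR 0.00346). The INSIG2 call was lost without negative control replicate 1, where the value was 0.24 (edgeR FDR 0.264), and without DEG replicate 2 (0.0757). INSIG1 rose to 861 and 854 CPM (log2 fold change 0.21, SE 0.028, edgeR FDR 5.53e-08), and SREBF2, at 511 and 499.8 CPM, had 0.023 (95% interval −0.038 to 0.084). NPC1 rose (0.17, edgeR FDR 0.000138). By the edgeR exact test, the quasi-likelihood test and DESeq2 0 of the 3 LXR targets were called, and 1, MYLIP, had an unadjusted p under 0.05. They had 89.2 and 90.2 CPM for ABCA1 (−0.027, 95% interval −0.15 to 0.10), 3.36 and 3.94 CPM for ABCG1 (0.27, 95% interval −0.12 to 0.67) and 12.4 and 12.2 CPM for MYLIP (0.19, 95% interval −0.0035 to 0.38). With 1 library left out, 9 to 12 of the 16 calls remained: 9 without negative control replicate 1, and 10 without DEG replicate 2. The calls of MVK, CYP51A1, HSD17B7, EBP and SC5D were among those lost, and CYP51A1 went from 0.26 to 0.13 without DEG replicate 2 (edgeR FDR 0.531).

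**Figure D3:**
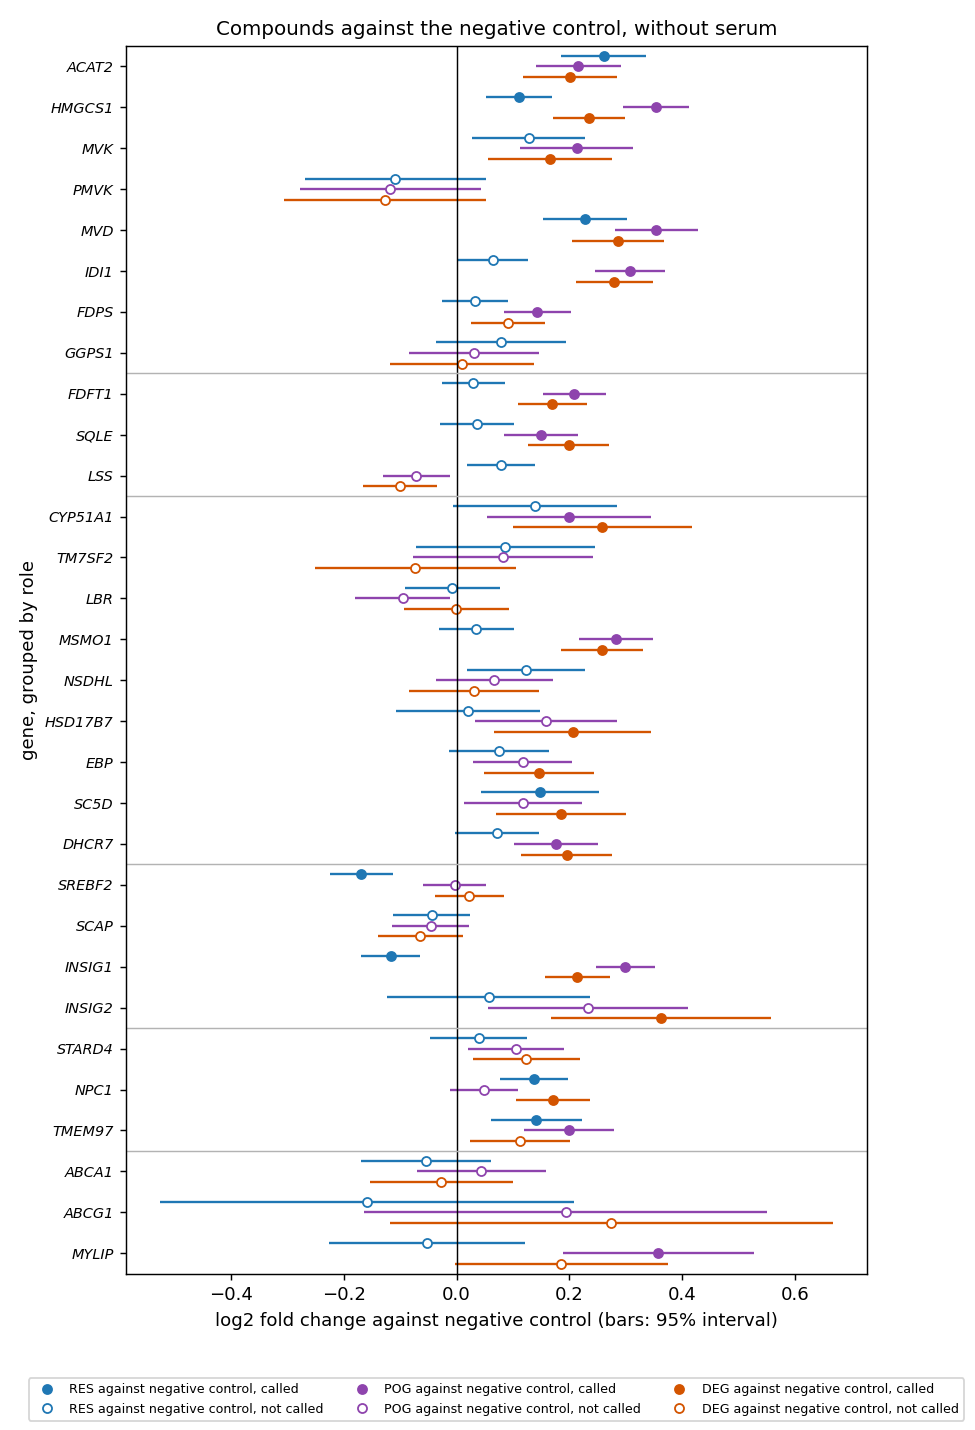
Log2 fold change of the 30 genes with each compound against the negative control (RES blue, POG purple, DEG orange; 3, 3 and 2 libraries against 2). Bars are 95% intervals and filled points passed an FDR of 0.05: 8 for RES, 14 for POG and 16 for DEG, with SREBF2 and INSIG1 the filled points below 0, both for RES.

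The 4 comparisons share the negative control libraries, so their log2 fold changes are set side by side and not counted together. HMGCS1 had −2.73 with serum against 0.11 (RES), 0.35 (POG) and 0.23 (DEG). IDI1 had −1.61 with serum against 0.065 (RES), 0.31 (POG) and 0.28 (DEG). LSS had −1.34 with serum against 0.079 (RES), −0.071 (POG) and −0.10 (DEG). TM7SF2, NSDHL and STARD4, which also fell with serum, were not called with any compound by the exact test with TMM scaling and dispersions from all libraries. With dispersions from the compared groups or with plain library totals, STARD4 was called higher with POG (FDR 0.004 and 0.0303) and DEG (0.00488 and 0.0416), and NSDHL with RES (0.0474 and 0.0391). NSDHL was also called with RES when RES replicate 3 was left out (0.045). With RES, POG and DEG in turn, TM7SF2 had 0.087, 0.082 and −0.073, NSDHL 0.12, 0.067 and 0.031, and STARD4 0.040, 0.11 and 0.12. Of the sensors, INSIG1 had −1.45 with serum against −0.12 (RES), 0.30 (POG) and 0.21 (DEG), and INSIG2 had 0.30 with serum against 0.057 (RES), 0.23 (POG) and 0.36 (DEG). PMVK, GGPS1, LBR, SCAP, ABCA1 and ABCG1 were not called in these 4 comparisons, except under alternatives: LBR and SCAP with serum (plain totals), LBR with POG (dispersions from the compared groups) and ABCA1 with serum (without positive control replicate 2).

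The compounds were then compared with each other at the same dose by mass. POG and RES differed in 14 of the 30 genes, 12 higher and 2 lower with POG, beside 13.7% of all tested genes higher and 14.1% lower. The median of the 30 genes was 0.0917, beside −0.000725 over all genes. INSIG1 stood at 921, 894 and 913 CPM with POG and 684, 689 and 672 CPM with RES (1.33-fold higher; log2 fold change 0.42, SE 0.023, edgeR FDR 1.71e-46), and no library of 1 group reached the other. MYLIP had 13.3, 14.8 and 13.5 CPM with POG and 9.56, 10.6 and 11.2 CPM in the RES libraries (log2 fold change 0.41, SE 0.073, edgeR FDR 3.65e-07), and MSMO1 262, 269.6 and 266 CPM against 226, 221 and 225 CPM (log2 fold change 0.25, SE 0.029, edgeR FDR 3.54e-13). SREBF2 was 0.17 higher with POG on the log2 scale (edgeR FDR 1.98e-07). The other genes higher with POG were IDI1, HMGCS1, FDFT1, HSD17B7, MVD, SQLE, FDPS and DHCR7, with values from 0.11 to 0.24. Of these, HSD17B7 (edgeR FDR 0.0439) lost its call without any 1 of 5 libraries and with the quasi-likelihood test, and DHCR7 without any 1 of 3.

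LSS and NPC1 were lower with POG than with RES. LSS (ENSG00000160285.14; hg38 chromosome 21, 46188141 to 46228824), which closes the ring system of the sterols, had 308, 301 and 304 CPM with POG and 331, 346 and 337 CPM in the RES libraries (log2 fold change −0.15, SE 0.026, edgeR FDR 6.32e-06). NPC1 had 275, 279 and 276 CPM against 293, 297 and 293 CPM (log2 fold change −0.089, SE 0.026, edgeR FDR 0.0139), and this call did not hold without RES replicate 2 or POG replicate 1 or 3 (FDR 0.0596 to 0.0686). ABCA1 (0.10, 95% interval −0.0034 to 0.20) and ABCG1 (0.35, 95% interval 0.036 to 0.67) did not pass the test. ABCG1 was called without RES replicate 3, at 0.61 (edgeR FDR 0.000895), and without POG replicate 3. With dispersions from the POG and RES libraries alone, both ABCA1 (FDR 0.00221) and ABCG1 (0.0407) were called.

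DEG and RES differed in 12 of the 30 genes, 11 higher and 1 lower with DEG, beside 10.3% of all tested genes higher and 10.8% lower. The median of the 30 genes was 0.0655, beside −0.00474 over all genes. INSIG1 had the largest rise among the called genes, with 861 and 854 CPM against 684, 689 and 672 CPM (log2 fold change 0.33, SE 0.026, edgeR FDR 1.42e-23). INSIG2 had 13.6 and 14.1 CPM against 11.9, 11.04 and 10.8 CPM (log2 fold change 0.31, SE 0.085, edgeR FDR 0.00314), lost without DEG replicate 2 (FDR 0.0781), and MYLIP had 0.24 (edgeR FDR 0.0278), lost without either DEG library, without RES replicate 1 or 2, without the filter on low counts and with DESeq2. SREBF2 was 0.19 higher (edgeR FDR 1.16e-07). MSMO1, IDI1, HSD17B7, SQLE, FDFT1, DHCR7 and HMGCS1 were the others, with values from 0.12 to 0.22. Of these, HSD17B7 lost its call without RES replicate 1 or 2 or DEG replicate 1 (FDR 0.0501 to 0.309), DHCR7 without RES replicate 3 or either DEG library (0.0926 to 0.123) and HMGCS1 without DEG replicate 2 (0.0527). LSS was lower with DEG, at 298 and 299 CPM against 331, 346 and 337 CPM (log2 fold change −0.18, SE 0.029, edgeR FDR 2.62e-06). ABCA1 (0.028, 95% interval −0.088 to 0.14) and ABCG1 (0.43, 95% interval 0.077 to 0.79) did not pass the test, though ABCG1 was called without RES replicate 3, at 0.69 (edgeR FDR 0.00077), without the filter on low counts (0.0486) and with dispersions from the DEG and RES libraries alone (0.0322).

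DEG and POG differed in 2 of the 30 genes, 1 each way, beside 0.55% of all tested genes higher and 0.497% lower. HMGCS1 was lower with DEG, at 373 and 374 CPM against 411, 396 and 409.6 CPM (log2 fold change −0.12, SE 0.028, edgeR FDR 0.0368), and NPC1 (ENSG00000141458.12; hg38 chromosome 18, 23506184 to 23586506) was higher, at 299.9 and 302 CPM against 275, 279 and 276 CPM (log2 fold change 0.12, SE 0.029, edgeR FDR 0.0334). Both calls were lost when any 1 of the 5 libraries was left out and without the filter on low counts. For 26 of the 30 genes the 95% interval of the difference lay within 0.25 of 0 on the log2 scale. Over the 28 genes not called, the intervals reached from −0.34 (MYLIP) to 0.43 (ABCG1), so differences up to those sizes cannot be set aside for these genes. INSIG1 had −0.085 (95% interval −0.14 to −0.033, edgeR FDR 0.198), with both DEG libraries below all POG libraries, and was called lower with dispersions from the DEG and POG libraries alone (FDR 3.57e-05). SREBF2 (0.026, 95% interval −0.030 to 0.081), ABCA1 (−0.071, 95% interval −0.19 to 0.044), ABCG1 (0.080, 95% interval −0.27 to 0.43) and MYLIP (−0.17, 95% interval −0.34 to −0.0052) did not pass the test.

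**Figure D4:**
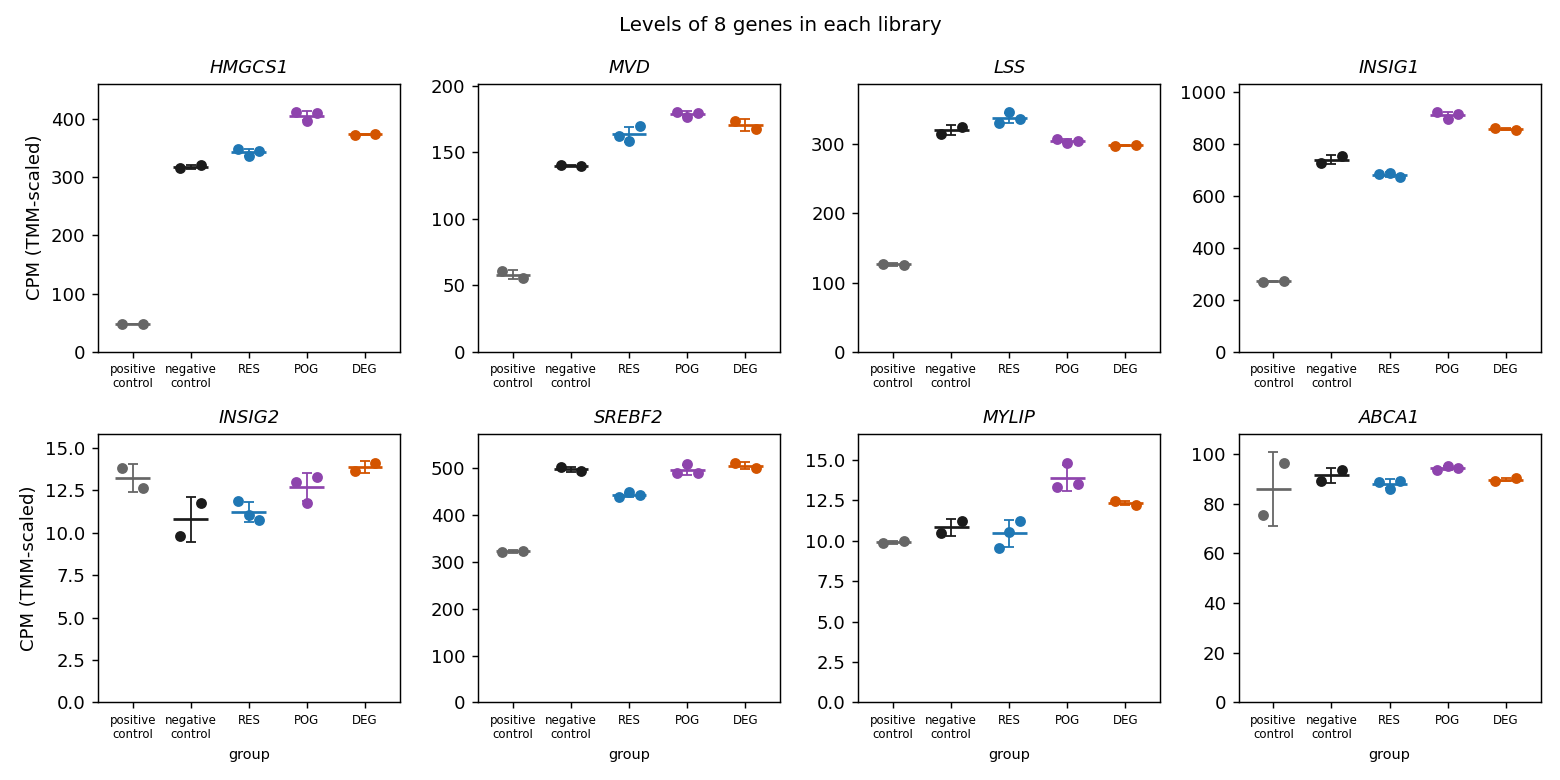
CPM of 8 genes in each library by group; points are libraries, horizontal lines are means and bars are SDs (2 or 3 libraries a group). INSIG1 is lowest with serum (269 and 272 CPM) and highest with POG (894 to 921), with RES just below the negative controls; LSS with POG and DEG sits below RES, and ABCA1 stays between 75.3 and 96.4 CPM.

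Another 30 genes of cholesterol handling, all tested, were also measured. With serum 7 rose and 12 fell, beside 21.4% and 20.9% of all tested genes, with a median log2 fold change of −0.0371. ERG28, a scaffold for the enzymes that demethylate sterols, fell from 53.9 to 28.2 CPM (−0.93, edgeR FDR 1.97e-63), and the lipoprotein receptor LRP8 fell from 86.6 to 52.9 CPM (−0.71). VLDLR, a related receptor, rose from 6.37 to 10.8 CPM (0.76), and the cholesteryl ester hydrolase NCEH1 rose from 63.7 to 104 CPM (0.71). SREBF1, whose product mainly serves fatty acid genes, changed by −0.18 (edgeR FDR 2.56e-05), and LPCAT3, a gene of phospholipid remodelling, by −0.51. Of the 30, 3 rose and 3 fell with RES, beside 4.94% and 6.21% of all tested genes. With POG 5 rose and 3 fell, beside 5.93% and 8.57%, and with DEG 4 rose and 3 fell, beside 3.52% and 6.11%. ERG28 rose with POG (0.16, edgeR FDR 0.00956) and with DEG (0.15, edgeR FDR 0.0354). SREBF1 fell with RES (−0.20, edgeR FDR 1.52e-06) and with DEG (−0.12, edgeR FDR 0.0342). LRP8 fell with RES (−0.19) and rose with POG (0.15).

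For some genes the counts are uncertain, since the strand setting and the treatment of reads with several matches are not given in the sources used here. Exons of HMGCS1 overlap those of the lncRNA ENSG00000261604 on the other strand over 37.68% of their length, FDPS those of RUSC1-AS1 over 18.64% and IDI1 those of IDI2-AS1 over 14.97%, and no counts of these 3 partners were analysed here. Exons of ACAT2 overlap those of TCP1 on the other strand over 17.2% of their length, TMEM97 those of IFT20 over 12.33%, and NPC1 those of RMC1 over 6.38%. Over 37.33% of their length the exons of GGPS1 lie under another annotated gene of the same strand, and so do 68.19% of those of CYP51A1 and 36.43% of those of EBP, and no counts of those partners were analysed here either. Pseudogenes named after HSD17B7 held 26.346% as many reads as the gene, and those of CYP51A1 4.198%.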

How the data were processed

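The values the authors deposited are whole read counts for each gene without normalization. Of 13 labelled samples 12 were used, and DEG replicate 3 was not analysed here. Per the study's methods, poly(A) RNA libraries were sequenced on a NovaSeq, FastQC metrics were made, STAR (BWA MEM is also named) placed the reads on hg38, and featureCounts assigned them to Ensembl genes. Tool versions, the annotation release and how strand and multi-mapping were handled are not given in the sources used here. The labels do not say that replicates came from separate cultures, so p-values measure only the spread between these libraries. Replicate numbers are in accession order and pair nothing.

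Symbols were matched by Ensembl identifier for 43214 of 43836 genes, and coordinates and exon lengths came from GENCODE on hg38. Counts were filtered by group with filterByExpr, which kept 17092 genes (99.967% of reads), scaled by TMM and tested with the exact test of edgeR 4.0.16 in R 4.3.3, as in the study, with dispersions from all 12 libraries (common biological coefficient of variation 3.21%) and Benjamini-Hochberg adjustment over all genes tested. Standard errors and 95% intervals came from the quasi-likelihood fit, which also gave the FDR where that of the exact test was too small to be written. The test was checked on simulated counts. In all, 7 comparisons were made. The alternatives were the quasi-likelihood test, dispersions from the groups compared, DESeq2 1.42.0 or its size factors, plain totals, no filter, an FDR of 0.01 and leaving out each library. A lone library left in a group was assumed to vary like the other groups.

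Values per library are given for the called members with the 3 largest rises and falls in each comparison (mean of at least 1 CPM) and for INSIG1, SREBF2, ABCA1, ABCG1 and MYLIP, and the others by value, count or range. Of the 30 further genes, those named were chosen after their values were seen. The 30 members and all gene lists were chosen with earlier results of these data known. Promoter sequences came from RefSeq (GRCh38.p14).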

Additional observations from a re-analysis of the deposited data

How the results depend on the processing

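Of the 23 members called with serum, 22 kept their call in every alternative judged at an FDR of 0.05, as did 3 of 8 with RES (ACAT2, MVD and SREBF2), 8 of 14 with POG, 9 of 16 with DEG, 11 of 14 between POG and RES, 7 of 12 between DEG and RES and 0 of 2 between DEG and POG. Over the genes named by rule, 538 of 585 alternative values kept the call, 38 lost it, 9 gained one and 0 reversed. Reversals were counted only where the value was called under the settings used above or under the alternative. A change of sign between uncalled values counts among the 538. With RES, 5 members were called at an FDR of 0.01 and 4 to 7 with 1 library left out (4 without either negative control). With DEG, 9 to 12 were called with 1 library left out (9 without negative control replicate 1, 10 without DEG replicate 2). Between DEG and POG, 1 was called with plain totals and 0 with no filter, at an FDR of 0.01 or with any library left out. More members were called with dispersions from the compared groups (10 with RES, 21 with POG, 20 with DEG, 19 between POG and RES, 15 between DEG and RES and 3 between DEG and POG) and with plain totals (11 with RES, 19 with POG and 19 with DEG). Plain totals moved the members' median from −1.07 to −1.11 with serum (LBR and SCAP were then called lower), from 0.0608 to 0.0883 with RES, from 0.154 to 0.178 with POG and from 0.0917 to 0.0883 between POG and RES. Leaving out 1 library gave medians of −1.074 to −1.003 with serum, 0.048 to 0.0798 with RES, 0.140 to 0.161 with POG, 0.0830 to 0.101 between POG and RES and 0.0562 to 0.0797 between DEG and RES. The cause was not tested. Over all genes, 1906 calls with RES became 881 and 937 when negative control replicate 1 or 2 was left out, and 2478 with POG became 1362 and 1364. With DEG, 1646 became 850 to 931 without any 1 of the 4 libraries and 2612 with dispersions from the compared groups. Between DEG and RES, 3616 became 2068 and 2208 without DEG replicate 1 or 2. Between DEG and POG, 179 became 32 and 36 without DEG replicate 1 or 2, 87 to 100 without a POG library, 103 with the quasi-likelihood test, 116 with no filter and 836 with dispersions from the compared groups. With 2 or 3 libraries a group, values near 3 CPM (ABCG1) gave the widest intervals. No paired analysis was possible because the labels carry no replicate numbers.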

Other observations

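The 30 further cholesterol-handling genes were compared between the compounds. Between POG and RES, 10 were higher and 5 lower with POG, beside 13.7% and 14.1% of all tested genes. Between DEG and RES, 6 were higher and 7 lower with DEG, beside 10.3% and 10.8%, while 0 were called between DEG and POG by the edgeR exact test (1 higher and 3 lower at an unadjusted p under 0.05). Against RES, LRP8 was higher with POG (0.34, edgeR FDR 1.82e-16) and with DEG (0.28, edgeR FDR 6.63e-09). The oxysterol-binding protein OSBP was higher with POG (0.22) and DEG (0.22). The esterifying enzyme SOAT1 was lower than with RES under POG (−0.27, edgeR FDR 1.59e-11) and DEG (−0.23). So was NCEH1, which reverses that step (−0.34 and −0.27). Beside the negative controls, however, it was RES that raised NCEH1 (0.31, edgeR FDR 7.78e-10). POG and DEG left NCEH1 uncalled there, at −0.031 and 0.039 (edgeR FDR 0.756 and 0.744). SREBF1 was higher with POG than with RES (0.18, edgeR FDR 1e-07). The RES libraries are shared by the comparisons of POG and of DEG with RES. CH25H, which makes an oxysterol, fell with serum (−1.50, edgeR FDR 2.75e-05), POG (−1.14, edgeR FDR 0.00141) and DEG (−1.09, edgeR FDR 0.0123), at mean levels of 0.519 to 1.48 CPM, which rest on few reads.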
